A study of Mus musculus with 8 samples.

Results

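The 10 core genes of the circadian clock and its output were followed in hippocampus, across 8 RNA-seq libraries. They are Arntl and Clock, the activators; Per1, Per2, Per3, Cry1 and Cry2, the repressors; Nr1d1 and Nr1d2, the nuclear receptors REV-ERB alpha and beta; and Dbp, an output factor. They were chosen by name, and all 10 were found among the 31417 genes of the count table and among the 16228 genes that passed the filter on low counts. The study measured poly(A) RNA from the hippocampus of mice aged 12 months that lacked Dclk3, a brain-enriched serine/threonine kinase (KO, 4 libraries), or were wild type at that gene (WT, 4 libraries). Each library came from a single hippocampus. The labels do not state separate animals for the libraries of a genotype, so p-values cover the spread between libraries, which may be technical in part. The sources used here give neither the strain nor the sex, the deleted part of Dclk3, any treatment or the time of day of collection.

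The clock is a feedback loop of transcription factors that runs in most cells with a daily period. A dimer of BMAL1, the product of Arntl, and CLOCK binds E-boxes and drives the Per, Cry, Nr1d and Dbp genes. PER and CRY proteins then block that dimer, REV-ERB proteins repress Arntl through ROR elements, and DBP acts on D-boxes, including those of Per genes. In tissues with a running clock, Arntl mRNA is high when that of Dbp and Nr1d1 is low. In hippocampus the loop has been linked to daily changes in memory and plasticity, and Per1 and Per2 can also be induced by neuronal activity and glucocorticoids.

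The elements through which the loop is wired were looked up in the promoters, taken as the 250 bases before to 50 bases after each RefSeq start (GRCm38.p6). Of the 10 genes, 9 had a promoter sequence, and Per2 had none. Both strands were searched for the E-box CACGTG, the D-box TTATGTAA or TTACGTAA, the ROR/REV-ERB element TAGGTCA or TGGGTCA, and the cAMP response element TGACGTCA or TGACGCAA. No match overlapped a match to another motif. Per3 held 2 D-boxes, Per1 and Cry1 held 1 E-box each, and Arntl held 1 ROR/REV-ERB element. Among all 32544 RefSeq promoters of this length, 1.05% held a D-box, 7.17% an E-box, 6.48% a ROR/REV-ERB element and 2.28% a cAMP response element. These shares are per promoter, while the counts of clock genes are per gene, and some of these genes have more than 1 promoter. Binding at the matches was not tested. These 4 windows are printed because they hold the matches found, with the motif in capitals:
Per3, 2 D-boxes: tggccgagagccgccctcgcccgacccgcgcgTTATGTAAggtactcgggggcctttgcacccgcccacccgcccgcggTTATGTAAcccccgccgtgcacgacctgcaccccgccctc
Per1, E-box: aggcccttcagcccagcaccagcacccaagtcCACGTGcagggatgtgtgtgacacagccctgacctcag
Cry1, E-box: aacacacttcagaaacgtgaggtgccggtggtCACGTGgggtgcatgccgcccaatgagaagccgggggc
Arntl, ROR/REV-ERB element: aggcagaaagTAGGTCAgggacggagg

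The Per3 window lies at chr4:151044784-151044902 on the minus strand, upstream of Per3 and within the span of Camta1 but in no exon. The Per1 window lies at chr11:69098751-69098820 on the plus strand, within an intron of Per1 in GENCODE M21. The Cry1 window lies at chr10:85185077-85185146 on the minus strand, in no annotated gene. The Arntl window lies at chr7:113207531-113207557 on the plus strand, within an exon of Arntl. No searched motif was found in the promoter sequences of Clock, Cry2, Nr1d1, Nr1d2 or Dbp, nor in a second Arntl and a second Per1 promoter. Elements outside these promoter sequences, or with other letters, were not searched, so these genes may still hold them.

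Total counts per library ranged from 29301974 to 36552757, so that 1 count was worth 0.0274 to 0.0341 CPM, the count scaled to the library total by edgeR's TMM factors. Dclk3 (ENSMUSG00000032500, 9:111439081-111489118, plus strand), which checks the labels, had a mean ± SD of 26.7 ± 8.51 CPM over the 4 WT libraries and of 7.71 ± 1.42 CPM over the 4 KO libraries, with no overlap between the genotypes. One library stood apart before any clock gene is considered. WT replicate 2 lay at 35.8 on the first principal component of all tested genes, which held 26.7% of the variance, while the other libraries lay between -26.1 and 15. The values without this library are therefore given beside those of all 8 where they differ most. Markers of hippocampal principal neurons were present in all libraries, with a summed level of 1554 to 1910 CPM in the WT libraries and 1465 to 1892 CPM in the KO libraries. Choroid plexus markers varied most, with sums of 73.9 to 2236 CPM in the WT libraries and 190 to 3471 CPM in the KO libraries. The 8 astrocyte markers were split in WT replicate 2. Gfap measured 1805 CPM there, beside 442 to 578 CPM elsewhere, and Aqp4 375 CPM beside 214 to 252 CPM. Gja1 (201 CPM), Aldoc (828 CPM) and Slc1a3 (833 CPM) had their lowest values in that library. These astrocyte markers were named after their values were seen. Of 7 genes known from the suprachiasmatic nucleus, the brain's master clock, Avp had 0 to 3 counts and Nms 0 to 1 counts in a library, and Prok2 and Lhx1 did not pass the filter either. Vip, a neuropeptide that interneurons of the hippocampus also make, measured 18.2 to 27.2 CPM and Rorb 16.9 to 26.6 CPM. The summed level of the 3 listed genes that passed the filter, Vip and Rorb among them, was 36.1 to 54.0 CPM. It had r = -0.89 with Clock (exact p = 0.0341, adjusted p = 0.472 over 90 relations of clock genes with marker sums, n = 8). With Dbp it had r = 0.85 (exact p = 0.0240, adjusted p = 0.472). The rho was -0.36 with Clock and 0.45 with Dbp. Without WT replicate 2 the r was -0.80 and 0.54. Without both WT replicate 2 and KO replicate 1 the signs turned, to 0.65 with Clock and -0.44 with Dbp. In none of the 9 marker lists was a gene called between the genotypes.

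All 10 clock genes were measured well above the detection limit. Levels are compared between genes only per kilobase of exon. On that scale Nr1d1 stood highest, at 29 ± 2.27 CPM per kb over the 8 libraries, and Cry2 next, at 25.7 ± 1.87. Their ranges overlapped, from 25.5 to 31.6 for Nr1d1 and from 22.5 to 27.8 for Cry2. Nr1d2 (14.9 ± 1.07), Per1 (13.4 ± 2.2) and Dbp (12.7 ± 2.91 CPM per kb) followed and did not differ beyond their spread. Clock stood at 8.74 ± 0.686 CPM per kb, and its range of 7.59 to 9.94 overlapped that of Dbp, 7.30 to 16.3. Per2 (5.21 ± 0.655), Arntl (4.36 ± 0.457), Cry1 (3.84 ± 0.278) and Per3 (3.34 ± 0.884 CPM per kb) were the lowest, and the ranges of neighbours in this order overlapped.

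**Figure D1:**
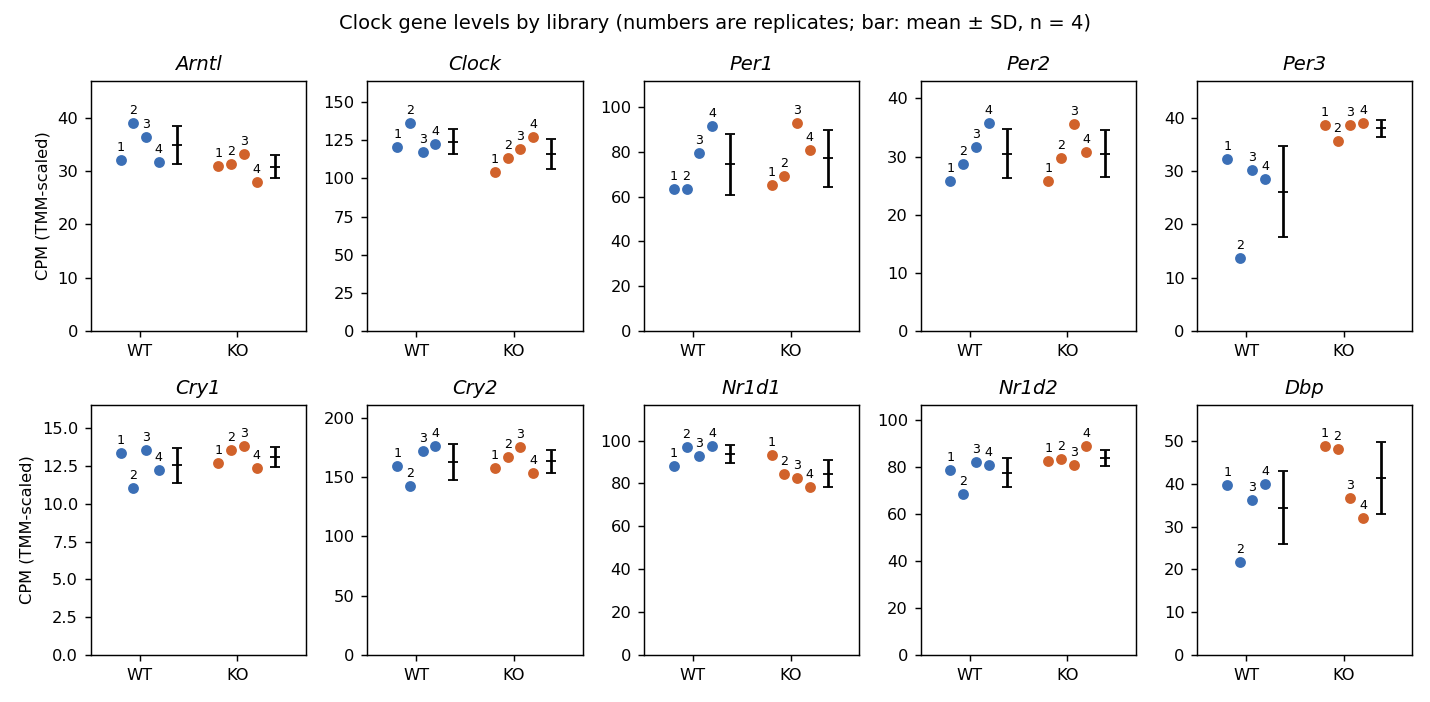
Level of each clock gene in CPM (y axes start at 0) in the 4 WT (blue) and 4 KO (orange) libraries, numbered by replicate, with the mean and SD of each genotype as a bar. The genotypes overlap for every gene but Per3, where WT libraries lie between 13.7 and 32.3 CPM and KO libraries between 35.7 and 39.1 CPM.

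Among the activators, Arntl (ENSMUSG00000055116, 7:113207465-113314126, plus strand) measured 32.1, 39.1, 36.4 and 31.6 CPM in WT replicates 1 to 4 and 30.9, 31.3, 33.1 and 28.0 CPM in the KO libraries replicates 1 to 4. WT replicates 2 and 3 were the highest and KO replicate 4 the lowest, and the genotypes overlapped. The log2 difference of KO from WT was -0.17 (SE 0.083, 95% interval -0.36 to 0.01). It did not pass edgeR's quasi-likelihood test (unadjusted p = 0.0597, Benjamini-Hochberg adjusted p = 0.796). Clock (ENSMUSG00000029238, 5:76209868-76304792, minus strand), the partner of BMAL1, measured 120, 136, 117 and 122 CPM in the WT libraries and 104, 114, 119 and 127 CPM in the KO libraries. WT replicate 2 was again the highest library, and KO replicate 1 the lowest. The log2 difference of Clock was -0.10 (SE 0.074, interval -0.26 to 0.07, edgeR adjusted p = 0.824). It was -0.05 without WT replicate 2 and also without KO replicate 1.

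Of the period genes, which encode the PER repressors, Per3 was the one that separated the genotypes. Per3 (ENSMUSG00000028957, 4:151003652-151044665, minus strand), whose promoter holds the 2 D-boxes printed above, measured 32.3, 13.7, 30.3 and 28.5 CPM in WT replicates 1 to 4. In KO replicates 1 to 4 it measured 38.7, 35.7, 38.7 and 39.1 CPM. Every KO library lay above every WT library, and WT replicate 2, apart from the other WT libraries, held the lowest value. The log2 difference was 0.54 (SE 0.226, 95% interval 0.02 to 1.05). It had an unadjusted p of 0.0422 and an edgeR adjusted p of 0.796, so Per3 did not pass the test over all genes. The log2 difference of Per3 was 0.33 without WT replicate 2 (edgeR adjusted p = 0.952). Over all tested genes, 1.88% had every KO library above every WT library and 1.92% had the reverse.

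Per1 and Per2 showed no such separation. Per1 (ENSMUSG00000020893, 11:69095217-69109960, plus strand) measured 63.3, 63.5, 79.3 and 91.6 CPM in the WT libraries and 65.1, 69.2, 92.9 and 80.8 CPM in the KO libraries. Per2 (ENSMUSG00000055866, 1:91415982-91459324, minus strand) measured 25.9, 28.7, 31.6 and 35.8 CPM in the WT libraries and 25.7, 29.8, 35.6 and 30.7 CPM in the KO libraries. Both genes were highest in WT replicate 4 and KO replicate 3 and low in replicate 1 of either genotype, so the spread lay within genotypes. The log2 difference was 0.05 for Per1 (SE 0.145, interval -0.27 to 0.37, adjusted p = 0.958 by edgeR). For Per2 it was -0.002 (SE 0.117, interval -0.26 to 0.26, adjusted p = 0.998 by edgeR).

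The cryptochromes, the other repressors of the dimer, varied little. Cry1 (ENSMUSG00000020038, 10:85131700-85185064, minus strand) measured 13.4, 11.1, 13.6 and 12.2 CPM in the WT libraries and 12.7, 13.6, 13.8 and 12.4 CPM in the KO libraries, for a log2 difference of 0.06 (SE 0.087, interval -0.13 to 0.26, edgeR adjusted p = 0.905). Cry2 (ENSMUSG00000068742, 2:92403646-92434043, minus strand) measured 159, 142, 172 and 176 CPM in the WT libraries and 158, 167, 175 and 153 CPM in the KO libraries. Its log2 difference was 0.01 (SE 0.077, interval -0.16 to 0.18, edgeR adjusted p = 0.991). Both were lowest in WT replicate 2, and the genotypes overlapped for both. Cry2 shares 295 exon bases (4.67%) with D930015M05Rik on the opposite strand.

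The REV-ERB genes, which close the second loop by repressing Arntl, had differences of opposite sign. Nr1d1 (ENSMUSG00000020889, 11:98767932-98775333, minus strand) measured 88.3, 97.1, 92.8 and 97.3 CPM in the WT libraries and 93.1, 84.4, 82.5 and 78.4 CPM in the KO libraries. KO replicates 2 to 4 lay below all WT libraries, and KO replicate 1 lay among them. The log2 difference was -0.15 (SE 0.064, interval -0.29 to -0.01), with an unadjusted p of 0.0413 and an edgeR adjusted p of 0.796. Nr1d1 shares 263 exon bases (8.55% of its exons) with Thra, the thyroid hormone receptor alpha gene on the opposite strand. The library kit marks strand, but the sources used here do not say that counting used it, so reads of the 2 genes in that stretch cannot be told apart. Thra ranged from 839 to 1084 CPM, and its r with Nr1d1 over the 8 libraries was 0.37 (rho = 0.43, exact permutation p = 0.362), or 0.92 without WT replicate 2. Nr1d2 (ENSMUSG00000021775, 14:18204054-18239127, minus strand) measured 78.9, 68.4, 82.3 and 80.9 CPM in the WT libraries and 82.5, 83.5, 81.0 and 88.8 CPM in the KO libraries. WT replicate 2 was the lowest library and KO replicate 4 the highest, with overlap between. Its log2 difference was 0.11 (SE 0.067, interval -0.04 to 0.26, edgeR adjusted p = 0.797).

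Dbp (ENSMUSG00000059824, 7:45705088-45710203, plus strand), the output factor that binds D-boxes, measured 39.7, 21.8, 36.2 and 40.1 CPM in the WT libraries and 48.8, 48.2, 36.8 and 32 CPM in the KO libraries. WT replicate 2 was lowest, KO replicates 1 and 2 were highest, and the genotypes overlapped. The log2 difference was 0.27 (SE 0.208, interval -0.20 to 0.74, edgeR adjusted p = 0.826), and 0.10 without WT replicate 2. Dbp shares 539 exon bases (18%) with Sphk2 on the opposite strand, and reads of that stretch likewise cannot be told apart.

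In all, 0 of the 10 clock genes passed edgeR's test between the genotypes (adjusted p below 0.05), and 0% of all 16228 tested genes did. Dclk3 itself did not pass in this fit (log2 difference -1.79, edgeR adjusted p = 0.234), so not passing does not show that a gene is unchanged. By DESeq2, 0.0308% of 16216 genes (5 genes) passed, with no clock gene among them. At an unadjusted p under 0.05, 1 of 10 clock genes was higher in KO (Per3) and 1 was lower (Nr1d1), against 3.96% and 2.2% of all tested genes (643 and 357 genes). The median log2 difference of the 10 genes was 0.03, with 6 above 0 and 4 below, beside 0.0003 over all tested genes, of which 8133 lay above 0 and 8095 below. Differences of the 10 genes ran from -0.17 (Arntl) to 0.54 (Per3). Without WT replicate 2 they ran from -0.13 (Nr1d1) to 0.33 (Per3), with Arntl at -0.11, Nr1d2 at 0.06, Cry1 at 0.008, Per1 at -0.02 and Cry2 at -0.05.

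**Figure D2:**
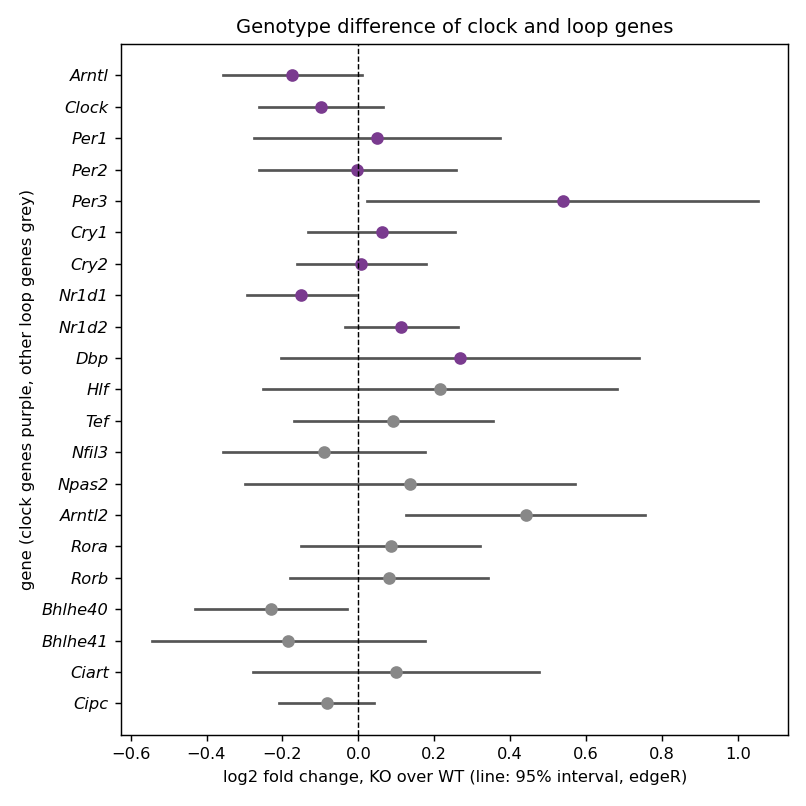
Log2 fold change of KO over WT (x axis) with its 95% interval from edgeR for the 10 clock genes (purple) and 11 further loop genes (grey). Intervals of Per3, Nr1d1, Arntl2 and Bhlhe40 leave out 0, and no gene passed the test over all genes.

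Per3 and Dbp had the widest spread of the clock genes across the 8 libraries, an order that rested on WT replicate 2. The SD of log2 CPM was 0.50 for Per3, larger than that of all but 6.94% of tested genes, and 0.37 for Dbp, exceeded by 15.1%. It was 0.23 for Per1 and 0.18 for Per2, and between 0.11 and 0.15 for the other 6 genes, beside a median of 0.15 over all tested genes and 0.11 over those of at least 10 CPM. Without WT replicate 2 Per1 had the largest SD (0.23), followed by Dbp (0.22), Per2 (0.19) and Per3 (0.19), and 37.1% of tested genes then exceeded Per3. The highest library exceeded the lowest 2.86-fold for Per3, 2.23-fold for Dbp and 1.47-fold for Per1, and at most 1.39-fold for the other genes.

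**Figure D3:**
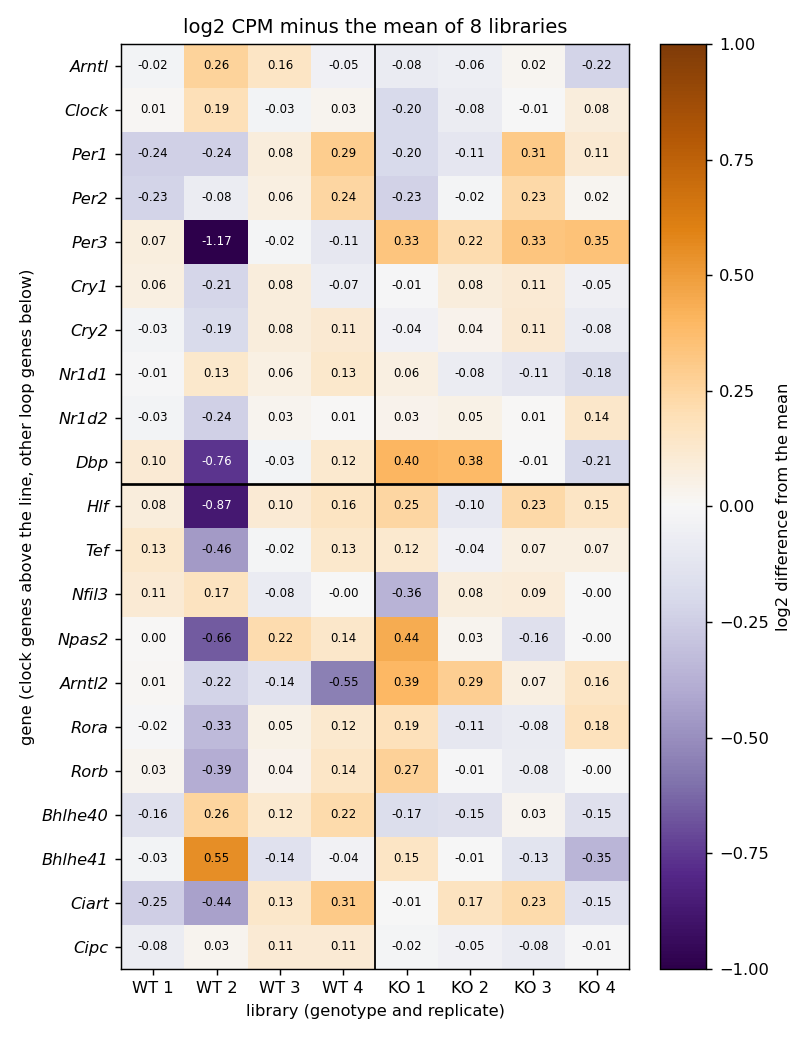
Log2 CPM of each gene (rows) in each library (columns) minus the mean over the 8 libraries, for the 10 clock genes above the line and 11 further loop genes below it. WT replicate 2 holds the lowest values of Per3 (-1.17), Hlf (-0.87) and Dbp (-0.76), while Per1 and Per2 follow another order of libraries.

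Covariation was examined as Pearson's r and Spearman's rho of log2 CPM between all 45 pairs of clock genes over the 8 libraries, with exact two-sided permutation p-values adjusted over the 45 pairs. One pair, Per1 and Per2, passed at an adjusted p under 0.05, with r = 0.94 (exact p = 0.0010, adjusted p = 0.0458) and rho = 0.88 (exact p = 0.0072, adjusted p = 0.295). The r was 0.95 after each genotype was centred on its own mean. Leaving out the 2 libraries farthest from the median of Per1 (WT replicate 4 and KO replicate 3) it was 0.82 (exact p = 0.0750, n = 6). Leaving out 1 library at a time gave an r between 0.91 and 0.97, while the adjusted p lay between 0.0580 and 0.223, above the threshold each time. Among 16227 other genes, Per2 ranked 2 by its r with Per1, and Per1 ranked 5 by its r with Per2. An r of at least 0.8 with Per1 was found for 0.536% of these genes.

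Clock and Dbp, named after their values were seen, formed the strongest negative pair, with r = -0.90 (exact p = 0.0031, adjusted p = 0.0703) and rho = -0.76 (exact p = 0.0368). Without WT replicate 2 the r was -0.84 (exact p = 0.0159, adjusted p = 0.357), and without KO replicate 1 and WT replicate 2, the farthest from the median of Clock, it was -0.79. KO replicate 1, with the least Clock, had the most Dbp, and WT replicate 2, with the most Clock, had the least Dbp. For scale, 9.77% of all other genes had an r of at least 0.8 with Clock and 6.59% an r of at most -0.8. With Dbp, 5.5% had an r of at least 0.8 and 5.45% an r of at most -0.8.

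**Figure D4:**
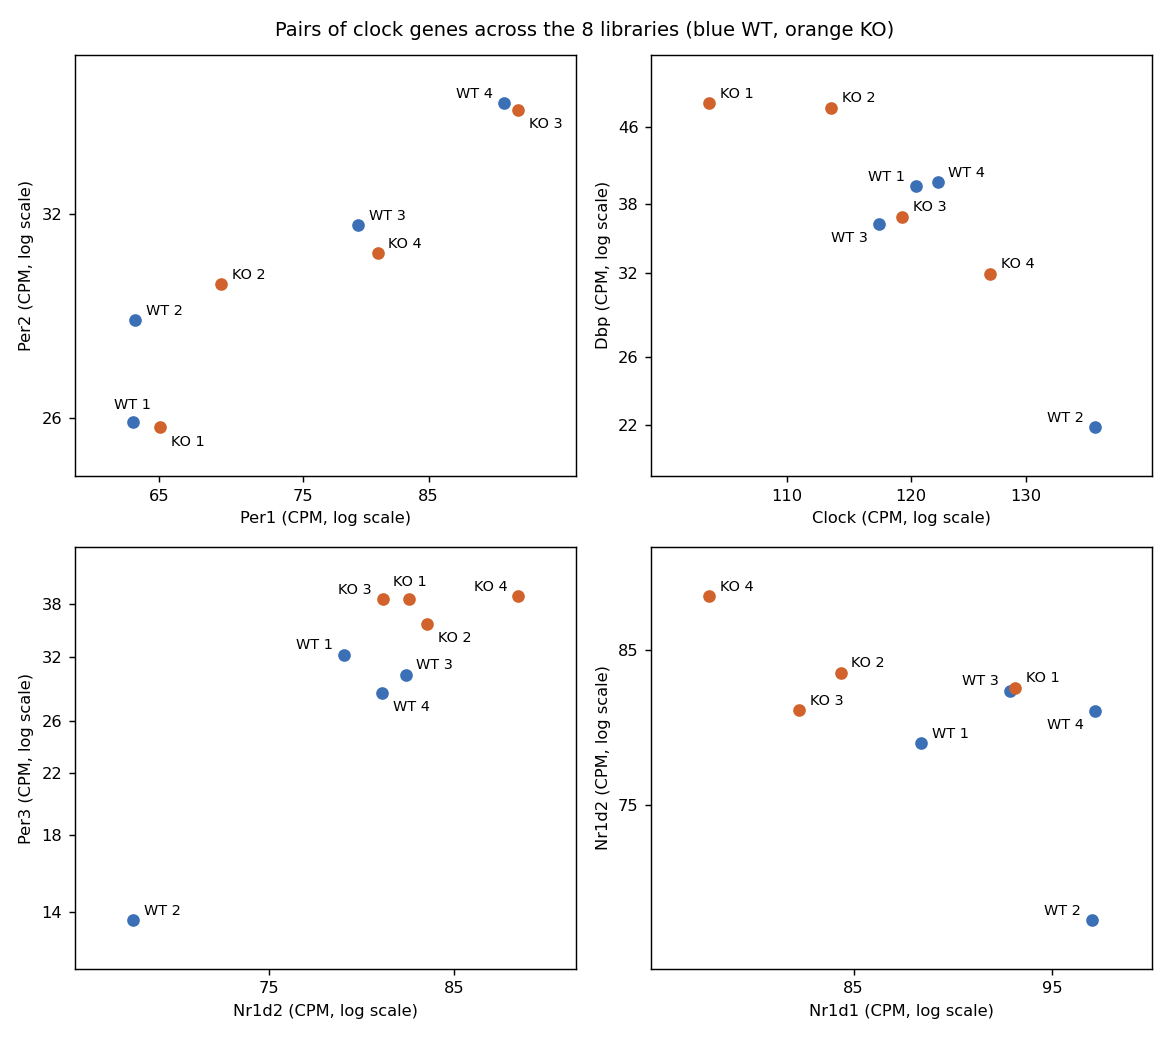
Levels of 4 pairs of clock genes in CPM on log axes, 1 point per library (blue WT, orange KO). Per1 and Per2 rank the libraries alike (r = 0.94), Dbp is low where Clock is high (r = -0.90), and the slope of Per3 on Nr1d2 (r = 0.91) rests on WT replicate 2; Nr1d1 and Nr1d2 have r = -0.64.

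Other pairs changed when WT replicate 2 was left out. Per3 and Nr1d2, also named after their values were seen, had r = 0.91 (exact p = 0.0144, adjusted p = 0.138), and 0.50 without that library. Per3 and Dbp had r = 0.79 (exact p = 0.0554, adjusted p = 0.239) and rho = 0.26, and r = 0.04 without WT replicate 2. Arntl and Dbp, the classical opposite arms, had r = -0.57 (exact p = 0.141, adjusted p = 0.318) and rho = -0.50, with r = 0.04 without WT replicate 2 and r = -0.91 without KO replicate 4, where the pair passed (exact adjusted p = 0.0089). Arntl and Cry1 had r = -0.28 (exact p = 0.502), and 0.65 without WT replicate 2. The r of Cry1 and Cry2 was 0.71 (exact p = 0.0446, adjusted p = 0.239, rho = 0.50). It was 0.33 without WT replicate 2 and 0.94 without WT replicate 4, where this pair passed (exact adjusted p = 0.0089). With both of these libraries left out it was 0.90.

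Among further pairs that are opposed or aligned in a running clock, some showed another sign here, and none passed the threshold. Arntl and Nr1d1, which oppose each other in a running clock, had r = 0.63 (exact p = 0.0978, adjusted p = 0.290, rho = 0.36). The r of this pair was 0.49 without WT replicate 2. The paralogues Nr1d1 and Nr1d2 had r = -0.64 (exact p = 0.0717, adjusted p = 0.269, rho = -0.60), and -0.59 without WT replicate 2. With each genotype centred on its own mean, the r was 0.34 for Arntl with Nr1d1 and -0.40 for Nr1d1 with Nr1d2. Nr1d1 and Dbp had r = -0.16 (exact p = 0.716), Arntl and Clock r = 0.38 (exact p = 0.350), and Arntl and Per2 r = 0.02 (exact p = 0.965). Among the 45 pairs, 26 had a positive r. Among the 15 pairs of the 6 genes driven through E-boxes (Per1, Per2, Per3, Nr1d1, Nr1d2, Dbp), 9 were positive, and of their 12 pairs with Arntl or Clock, 7 were negative. These counts were 23, 6 and 5 without WT replicate 2. Of all gene pairs, 49.8% had a positive r.

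Few pairs of clock genes were strongly correlated. An r of at least 0.8 was found in 2 of 45 pairs (Per1 with Per2, Per3 with Nr1d2) and an r of at most -0.8 in 2 (Clock with Dbp, Arntl with Nr1d2, named after its value was seen), against 2.33% and 2.01% of all 131665878 gene pairs. Leaving out WT replicate 2 left 1 of each (Per1 with Per2, Clock with Dbp), against 3.21% and 2.79% of all pairs.

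**Figure D5:**
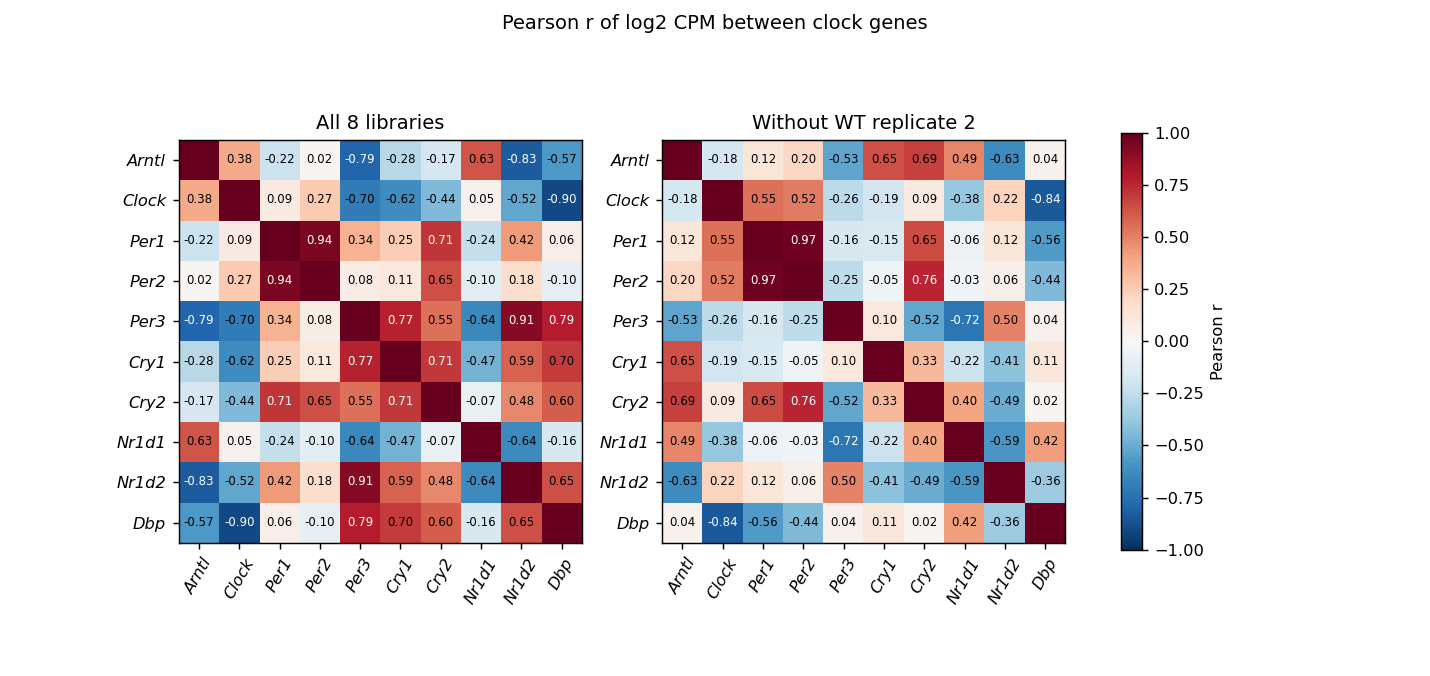
Pearson r of log2 CPM between each pair of clock genes over all 8 libraries (left) and without WT replicate 2 (right), on a colour scale from -1 to 1. Per1 with Per2 (0.94 and 0.97) and Clock with Dbp (-0.90 and -0.84) keep their r in both panels, while Per3 with Dbp goes from 0.79 to 0.04.

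A single position per library was taken as the mean centred log2 CPM of the 6 driven genes minus that of Arntl and Clock, called the clock axis. It is a description and has no test. The axis was -0.05, -0.61, -0.03 and 0.12 in WT replicates 1 to 4 and 0.21, 0.14, 0.12 and 0.11 in KO replicates 1 to 4. WT replicate 2 lay far below the other 7 libraries, which spanned -0.05 to 0.21. The mean was -0.14 ± 0.32 in WT and 0.14 ± 0.04 in KO (SD, n = 4 each), a difference of 0.29 that came to 0.13 without WT replicate 2. In that library Per3 and Dbp were low and Arntl and Clock high. On the log2 scale Per1 (-0.24), Nr1d2 (-0.24) and Per2 (-0.08) were also below their means there, while Nr1d1 was above its mean (0.13).

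Genes whose pattern over the 8 libraries was most like the clock axis were taken as those with the 8 highest and 8 lowest r among genes of at least 5 CPM. The highest were D16Ertd472e (r = 0.995), Entpd3 (0.99), Pkd1 (0.97), Gucy2e (0.97), Cmtm5 (0.97), Mknk1 (0.96), Pmvk (0.96) and Nsun7 (0.96). The lowest were Mapkapk2 (-0.97), Pgpep1 (-0.97), Dhrs1 (-0.96), S1pr3 (-0.96), Psmd6 (-0.96), Metap2 (-0.96), Exoc7 (-0.96) and March4 (-0.96). These are descriptions over 8 libraries that share WT replicate 2. Without it D16Ertd472e (0.98), Entpd3 (0.89), Psmd6 (-0.93) and Metap2 (-0.80) were the members of these lists with an absolute r of at least 0.8. In WT replicate 2 D16Ertd472e measured 4.74 CPM, beside 7.03 to 8.68 CPM elsewhere, and Mapkapk2, a stress-activated kinase, 53.3 CPM beside 36.8 to 39.9 CPM. Over all genes 3.58% had an r of at least 0.8 with the axis and 3.19% an r of at most -0.8, and 0.629% in either direction without WT replicate 2.

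The other transcription factors of the loop had a high r with the clock axis only when WT replicate 2 was included. Of 11 such genes, 4 had an r of at least 0.8 with the axis: Hlf (0.93) and Tef (0.91), the relatives of Dbp; Rorb (0.85), an activator that competes with REV-ERB; and Npas2 (0.83), a paralogue of Clock. No gene of the list reached 0.8 without WT replicate 2, and Hlf had an r of 0.24, Tef of 0.13, Rorb of 0.38 and Npas2 of 0.24. Hlf measured 162, 83.6, 164 and 171 CPM in the WT libraries and 181, 143, 180 and 170 CPM in the KO libraries, so that WT replicate 2 held the lowest value of Hlf as of Dbp and Per3. Tef measured 355 CPM in that library and 475 to 534 CPM in the other 7. Of the 10 loop genes with a promoter sequence, 4 held an E-box, 1 a ROR/REV-ERB element, 1 a cAMP response element and none a D-box.

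None of the 11 loop genes passed edgeR's test between genotypes, and their median log2 difference was 0.08. At an unadjusted p under 0.05, 1 was higher in KO and 1 lower, beside 3.96% and 2.2% of all tested genes. Arntl2, a paralogue of Arntl, measured 4.43, 3.77, 3.98 and 3.0 CPM in the WT libraries and 5.77, 5.36, 4.60 and 4.90 CPM in the KO libraries, the other loop gene with no overlap (log2 difference 0.44, SE 0.142, unadjusted p = 0.0107, edgeR adjusted p = 0.796). Bhlhe40, a repressor of the dimer, measured 119 ± 14.6 CPM in the WT libraries and 101 ± 6.68 CPM in the KO libraries (log2 difference -0.23, unadjusted p = 0.0281, edgeR adjusted p = 0.796). Cipc (-0.08), an inhibitor of CLOCK, and Bhlhe41 (-0.18), a relative of Bhlhe40, were the next by p. The difference of Bhlhe41 rested on WT replicate 2 (55.6 CPM beside 34.4 to 37.4 CPM in the other WT libraries) and was -0.001 without it. Ciart, another repressor, had an r of 0.94 with Cry2 and 0.88 without WT replicate 2 (exact p = 0.0011, adjusted p = 0.172 over the 692 relations of clock genes with listed genes); this pair was named after its value was seen.

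Of 18 kinases, ubiquitin ligases and cofactors that act on clock proteins, none passed the test either. Usp2, a ubiquitin protease that acts on clock proteins, measured 53.5 ± 5.99 CPM in the WT libraries and 61.4 ± 3.41 CPM in the KO libraries (log2 difference 0.20, SE 0.083, unadjusted p = 0.0374, edgeR adjusted p = 0.796). It was also the 1 regulator with an r of at least 0.8 with the clock axis (0.92, and 0.63 without WT replicate 2). Csnk1d (-0.09), the kinase that marks PER proteins for turnover, Sirt1 (0.11) and Gsk3b (-0.10) had small log2 differences with edgeR adjusted p-values of 0.796 to 0.826. Wdr5 (r = -0.79), Usp7 (-0.79) and Fbxw11 (-0.70) had the next largest r with the axis, and -0.53, 0.35 and -0.19 without WT replicate 2. The difference of Usp2 was 0.12 without that library.

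Genes that answer to temperature, hormones or activity were read beside the clock genes, because these cues also reach the clock. None of 12 temperature genes, 15 glucocorticoid-responsive genes or 13 immediate early genes passed edgeR's test between the genotypes, and the median log2 differences were -0.05, 0.19 and -0.02. Among the temperature genes Hspa8 (-0.12), Hsp90ab1 (-0.10), Dnajb1 (-0.06) and Hspa1a (-0.12) had the lowest p, at 0.127 or more. Among glucocorticoid-responsive genes the lowest unadjusted edgeR p belonged to Tsc22d3 (log2 difference 0.30), Mertk (0.35), Hif3a (0.99) and Arrdc2 (0.23), each with an adjusted p of 0.796 by edgeR. Hif3a measured 12.8 CPM in KO replicate 4 and 2.15 to 5.09 CPM in the other 7 libraries, and without KO replicate 4 the differences were 0.35 for Hif3a, 0.21 for Mertk and 0.20 for Tsc22d3. KO replicate 4, the lowest library for Arntl and Nr1d1, had the largest glucocorticoid sum, 791 CPM beside 543 to 637 CPM elsewhere; the part of this in the values of Arntl and Nr1d1 was not tested. Among immediate early genes Ier2 (0.37, unadjusted p = 0.0182), Junb (-0.20), Dusp1 (0.19) and Btg2 (0.31) came first. Dusp1 came to 0.09 and Btg2 to 0.10 without WT replicate 2, and Junb to -0.10 without WT replicate 1.

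Some heat-shock genes had a high r with Clock, and none of these relations passed after adjustment. Of 12 temperature genes, 5 had an r of at least 0.8 with Clock (Hsph1, Hsp90ab1, Hsp90aa1, Dnaja1, Stip1), where 9.77% of all genes did. Without WT replicate 2 there were 6, where 11.7% of all genes did. Hsph1 measured 313, 412, 296 and 325 CPM in the WT libraries and 240, 280, 364 and 398 CPM in the KO libraries, in an order close to that of Clock. Its r with Clock was 0.93 (rho = 0.93, exact p = 0.0006, adjusted p = 0.172 over 692 relations), and 0.92 without WT replicate 2. Dbp had the opposite sign, with r = -0.85 for Hsph1 (exact p = 0.0058, adjusted p = 0.305), the 1 temperature gene at or below -0.8, where 5.45% of all genes were. When that library was left out there were 6, while 4.89% of all genes reached that. Cirbp, a cold-inducible RNA-binding protein, had r = -0.74 with Clock and 0.70 with Dbp. Hsp90aa1, Dnaja1, Stip1 and Cirbp were named after their values were seen. Clock also had r = 0.83 with the summed level of 12 hippocampal neuron markers (rho = 0.90, exact p = 0.0019, adjusted p = 0.174 over 90 relations of clock genes with marker sums), and 0.87 without WT replicate 2. These markers did not move together. In KO replicate 1, lowest for Clock and for the sum, C1ql2 was at its highest (99.1 CPM). Zbtb20 (185 CPM), Neurod6 (147 CPM), Fibcd1 (154 CPM) and Spink8 (18.7 CPM) were at their lowest there. Zbtb20 alone reached 518 CPM in KO replicate 4. The markers singled out here were named after their values were seen. The part of neuron content in the relations of Clock was not tested. In bulk tissue, fewer cells of a type and less RNA per cell cannot be told apart.

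Per1 and Per2 were set beside the immediate early genes. Of 13 immediate early genes, 12 had a positive r with Per1 and 12 with Per2, with medians of 0.37 and 0.48, and none reached 0.8. Of all other genes, 50.8% had a positive r with Per1 and 49.1% with Per2. The counts were also 12 of 13 for Cry1 (median 0.39) and for Cry2 (median 0.46), where all other genes had 52.2% and 50.8%. Nr4a1 had r = 0.75 with Per1 (exact p = 0.0198, rho = 0.64, adjusted p = 0.325 over 692 relations) and 0.78 with Per2. Egr1 had r = 0.72 with Per1 and 0.76 with Per2. Egr1, a gene switched on by synaptic activity, measured 112, 101, 105 and 137 CPM in the WT libraries and 60.8, 83.2, 166 and 101 CPM in the KO libraries, highest in KO replicate 3 and WT replicate 4, as were Per1 and Per2. Nr4a1 and Egr1 were named after their values were seen. Of 15 glucocorticoid-responsive genes, 12 had a positive r with Per1 (median 0.13, highest 0.55) and 8 with Per2 (median 0.04, highest 0.68).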

How the data were processed

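Whole-number read counts per Ensembl gene, unnormalized, were deposited by the authors as 1 table with a column for each of the 8 libraries. The submitters' processing notes name bcl2fastq 2.17.1.14 and the mm10 build. The sources used here give no aligner, no counting tool and no strand setting. Libraries held 29301974 to 36552757 counts, and since PCR copies carry no molecular identifier, precision was judged from the spread between libraries. Symbols were found for 31292 of 31417 gene IDs. The genotypes were compared with edgeR 4.0.16 under R 4.3.3 (TMM scaling, filterByExpr, robust quasi-likelihood test, Benjamini-Hochberg adjustment over 16228 genes, threshold 0.05), which was tested on simulated data. Covariation used log2 CPM (prior count 2) and exact permutation tests over all pairings (Python 3.11.15, NumPy 2.4.6). Positions and exon lengths came from GENCODE M21, and promoters from RefSeq (GRCm38.p6).

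Groups were taken from the sample titles, and no library was left out. Values of 1 gene are not reported here. The text names the 10 clock genes, Dclk3, up to 4 genes per list by lowest p and 4 by largest r with the clock axis, 8 genes at either end of that axis, the called pairs and 10 pairs set by role; others are said to be chosen after their values were seen. The members and lists were chosen with earlier results of these data known. Alternatives were DESeq2 1.42.0, limma-voom (limma 3.58.1), other scaling, filters and prior counts, a replicate block, and each library left out in turn. Counts without WT replicate 2 were added after the data were seen.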

Additional observations from a re-analysis of the deposited data

Results flagged for a closer look

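In each genotype, the highest or lowest of 4 libraries was compared with the other 3 for 88 gene and genotype combinations, and 6 stood outside the range that Dixon's criterion allows. Chance flags about 1 in 20 such groups. Hlf in WT replicate 2 measured 83.6 CPM beside 162 to 171 CPM in the other WT libraries. Bhlhe41 in the same library measured 55.6 CPM beside 34.4 to 37.4 CPM. Dclk3 in that library measured 39.3 CPM beside 20.8 to 23.5 CPM. Per3 in KO replicate 2 measured 35.7 CPM beside 38.7 to 39.1 CPM in the other KO libraries, a small gap in a narrow range. Bhlhe40 in KO replicate 3 measured 111 CPM beside 97.1 to 98.5 CPM. Wdr5 in KO replicate 1 measured 25.3 CPM beside 27.7 to 28.2 CPM.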

How the results depend on the processing

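No clock gene was called between the genotypes under any alternative run. Over all genes the count of calls was 0 by edgeR, 5 by DESeq2, 1 with a replicate block, and 0 to 1 with 1 library left out. Member pairs called numbered 1, and 2 with library totals in place of TMM, 0 with a replicate block (Per1 with Per2 then had r = 0.94, adjusted p = 0.313) and 0 to 1 with 1 library left out, when the pair called was Arntl with Dbp (without KO replicate 4) or Cry1 with Cry2 (without WT replicate 4) and not Per1 with Per2. The labels do not say whether the replicate numbers pair the libraries. Deviations of same-numbered libraries had r = 0.14, 0.12, -0.22 and -0.01 over genes. Those of libraries with different numbers ran from -0.30 to 0.19. With so few libraries these values cannot decide whether the numbers pair them. The log2 difference of Dclk3 passed the threshold by DESeq2 (-1.79), with the block (-1.76) and without WT replicate 2 (-1.54). That of Per2, close to 0, turned to 0.0052 with a filter of 1 CPM and 0.013 with upper quartile factors. With 1 library left out it ran from -0.086 to 0.082 for Per2, from -0.055 to 0.16 for Per1 and from -0.047 to 0.047 for Cry2. Correlations that turned sign were Arntl with Per2 (-0.028 with library totals, -0.012 with the block, -0.11 to 0.20 with 1 library left out) and Nr1d1 with Dbp (0.20 genotype-centred, 0.048 with library totals, -0.42 to 0.42). With 1 library left out, Arntl with Dbp ran from -0.91 to 0.037, Arntl with Clock from -0.18 to 0.73 and Arntl with Cry1 from -0.50 to 0.65. Clock with Dbp passed with library totals (-0.95, adjusted p = 0.0134). The cause of these shifts was not tested.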

Other observations

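Some relations of clock genes with listed genes held a similar r without WT replicate 2, although none of the 692 passed after adjustment. Nr1d1 had r = -0.92 with Ier2, an immediate early gene (rho = -0.95, exact p = 0.0024, adjusted p = 0.183), and -0.90 without WT replicate 2. Arntl had r = -0.88 with Ddit4, a stress- and glucocorticoid-induced inhibitor of mTOR signalling (rho = -0.79, exact p = 0.0012, adjusted p = 0.172), and -0.85 without that library. Clock had r = 0.90 with Gsk3b, a kinase that acts on clock proteins (rho = 0.93, exact p = 0.0022, adjusted p = 0.183), and 0.91 without it. Leaving out the 2 libraries farthest from the median of the clock gene gave -0.94 for Nr1d1 with Ier2, -0.62 for Arntl with Ddit4 and 0.83 for Clock with Gsk3b. These 3 relations were chosen after their values were seen. Ddit4 (r = 0.91), Pdk4 (0.85) and Btg2 (0.81) were also among the genes with an r of at least 0.8 with the clock axis, at 0.30, -0.61 and -0.072 without WT replicate 2.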
